A study of Mus musculus with 20 samples.

Results

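Cxcl9, Cxcl10, Gbp2b, Ubd, Tgtp1, Psmb8 and Psmb9 are genes that interferon-gamma switches on, and they are described here in the livers of 20 gonadectomized mice. They are the probes whose platform symbol is one of these names or an older one (Gbp1 for Gbp2b, Tgtp for Tgtp1), with 1 probe each. They make up 7 of 21643 features, of which 11734 are named genes. The genes were chosen by their values in these arrays, because earlier results showed them low in gonadal males. Their difference between gonadal types is therefore given as a description, without a test, and tests are kept for the sex chromosomes and for other genes.

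All animals were C57BL/6J mice of the FCG (core genotypes) cross, whose Y chromosome has lost Sry, the testis-determining gene, and whose Sry transgene sits on an autosome. The 2 groups of gonadal males carried the transgene, as XX Sry and as XY-Sry, and the 2 groups of gonadal females lacked it, as XX and as XY-, with 5 animals in each of the 4 groups. Each received chow of 4% fat, was gonadectomized at the age of 8 weeks, and was killed at 12 weeks, having fasted for 12 h. No animal had gonads when its liver was taken. The transgene and the gonads carried until 8 weeks, testes in gonadal males and ovaries in gonadal females, cannot be told apart.

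Interferon-gamma is a cytokine made mainly by T cells and NK cells. It binds a receptor of the chains IFNGR1 and IFNGR2, whose kinases JAK1 and JAK2 start the signal to the nucleus, and target genes are switched on through DNA elements called GAS and ISRE. In liver its targets act in hepatocytes, Kupffer cells (the liver's macrophages) and endothelium, where they recruit lymphocytes, restrain microbes inside cells and raise the presentation of antigens. CXCL9 and CXCL10 are chemokines that draw in cells with the receptor CXCR3. The genes Gbp2b and Tgtp1 encode GTPases of intracellular defence, and Ubd encodes FAT10, a ubiquitin-like tag that sends proteins to the proteasome. Psmb8 and Psmb9 encode catalytic subunits of the immunoproteasome, which cuts proteins into peptides for MHC class I.

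The stretches upstream of 4 of the genes are printed because the genes are known targets of the same pathway. The sequences come from RefSeq (mouse build GRCm38.p6), run 5′ to 3′ on the gene's own strand and start 250 bases before the gene start. Only the 200 bases farthest from the start are printed, so they do not reach it, whereas the search covered all 250. All 7 genes matched a RefSeq entry. Capitals mark matches to an ISRE-type motif (GAAA and GAAA with 2 bases of any kind between them, searched on both strands) and, in Tgtp1, also to a GAS-type motif (TTCNNNGAA, the same on both strands). The windows are chr5:92348940-92349139 (minus strand) for Cxcl10, chr3:142594597-142594796 (plus strand) for Gbp2b, chr11:48992297-48992496 (minus strand) for Tgtp1 and chr5:92328130-92328329 (minus strand) for Cxcl9, which has no match.
Cxcl10: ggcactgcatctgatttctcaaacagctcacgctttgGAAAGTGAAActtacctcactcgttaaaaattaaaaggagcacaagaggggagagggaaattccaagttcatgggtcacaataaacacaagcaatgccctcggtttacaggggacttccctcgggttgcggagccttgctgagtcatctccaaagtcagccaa
Gbp2b: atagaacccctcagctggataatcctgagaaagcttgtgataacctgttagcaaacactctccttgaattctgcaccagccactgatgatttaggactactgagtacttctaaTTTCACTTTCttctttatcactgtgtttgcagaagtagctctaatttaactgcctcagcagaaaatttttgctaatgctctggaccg
Tgtp1: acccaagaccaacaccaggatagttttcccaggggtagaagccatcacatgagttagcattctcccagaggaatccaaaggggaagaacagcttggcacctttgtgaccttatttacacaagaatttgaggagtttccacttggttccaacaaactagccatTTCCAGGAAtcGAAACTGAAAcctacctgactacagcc
Cxcl9: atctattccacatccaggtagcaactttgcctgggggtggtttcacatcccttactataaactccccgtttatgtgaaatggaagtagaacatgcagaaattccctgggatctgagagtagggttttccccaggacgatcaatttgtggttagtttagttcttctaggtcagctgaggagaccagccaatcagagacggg

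The ISRE-type letters were found in the 250 bases upstream of 3 of the 7 genes. They lie 213 to 204 bases before the start in Cxcl10, 137 to 128 in Gbp2b, on the other strand, and 77 to 68 in Tgtp1. In the same window they occur in 2.98% of 32851 RefSeq gene starts. The GAS-type letters were found in 2 of the 7, at 88 to 80 bases before the start in Tgtp1 and at 97 to 89 in Psmb8 (chr17:34197945-34198144, plus strand), against 7.02% of all gene starts. The 2 motifs in Tgtp1 do not overlap. Psmb8, Psmb9 and Ubd are all on chromosome 17, and Cxcl9 and Cxcl10 are both on chromosome 5. A match of letters is a description of the sequence and does not show that a factor binds there.

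Each array carried the liver RNA of 1 animal in Cy5 against a common liver pool in Cy3, and all values below are log2 ratios of liver over pool. A value of 0 means the pool's level, and a negative value means less than the pool. Ratios show differences between animals and no level, so genes cannot be set against each other in level, and no marker can be called absent. In bulk liver, fewer cells of a type and less RNA per cell cannot be told apart. The SD of all log2 ratios on an array ran between 0.175 and 0.264 on 16 arrays and between 0.32 and 0.341 on 4, all of gonadal females (XX animals 2 and 6, XY- animals 3 and 12). The library labelled XY- animal 30 went against its label: its Y-linked Eif2s3y stood at -3.905, while the other 9 XY livers lay between 0.57 and 1.34. Its Kdm5d, also Y-linked, stood at -3.16, while the others lay between 0.14 and 1.37. The library stays in the group its label gives, and results on the sex chromosomes are given with and without it.

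Cxcl9 differed the most between gonadal types among the 7 genes. It stood at -1.84, -1.75, -1.57, -2.03 and -1.54 in XX Sry livers and at -1.74, -1.34, -2.002, -1.60 and -1.64 in XY-Sry livers. It stood at -0.08, 0.91, 0.16, 0.42 and 0.48 in XX livers and at 2.88, -0.07, -0.52, -0.04 and -0.18 in XY- livers. All 10 gonadal males lay below all 10 gonadal females, with a gap between the highest male (-1.34) and the lowest female (-0.52). The males were also closer together, at -1.71 ± 0.21 against 0.40 ± 0.96 in females (SD, n = 10 each), and XY- animal 12 stood far above the other females. The mean difference was -2.10 ± 0.30 (SE), or 4.29-fold lower in gonadal males.

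Cxcl10, the second CXCR3 chemokine, differed less. It stood at -0.30, -0.53, -0.48, -0.83 and 0.04 in XX Sry livers and at -0.80, -0.07, -0.95, -0.51 and -0.88 in XY-Sry livers. In XX livers it stood at -0.44, 1.43, 0.44, 0.81 and 0.65, and in XY- livers at 1.41, 0.13, 0.17, -0.44 and 0.53. The gonadal types overlapped, because 1 XX and 1 XY- liver lay at -0.44, among the males. Gonadal males averaged -0.53 ± 0.34 and gonadal females 0.47 ± 0.65 (SD, n = 10 each), a difference of -0.999 ± 0.22 (SE).

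Gbp2b, a guanylate-binding protein gene, followed the pattern of Cxcl9. It stood at -1.69, -1.67, -1.43, -2.16 and -1.62 in XX Sry livers and at -1.50, -1.35, -2.01, -1.39 and -0.77 in XY-Sry livers. In XX livers it stood at 0.19, 1.41, 0.22, -0.01 and 0.19, and in XY- livers at 2.30, 0.15, -0.29, -0.13 and -0.25. Every gonadal male lay below every gonadal female. In 8 of the 10 females the values lay between -0.29 and 0.22, and XX animal 6 and XY- animal 12 lay above them. The mean difference was -1.94 ± 0.28 (SE), or 3.83-fold lower in gonadal males.

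Tgtp1, a GTPase of the immunity-related family, stood at -1.57, -1.03, -0.82, -1.69 and -1.44 in XX Sry livers. In XY-Sry livers it stood at -1.37, -0.86, -1.82, -1.03 and -1.25. It stood at -0.42, 1.87, 0.15, 0.14 and 0.02 in XX livers and at 2.58, -0.16, -0.87, -0.45 and -0.41 in XY- livers. The gonadal types touched at 1 point: the lowest female, XY- animal 24 at -0.87, lay below 2 of the 10 males. The mean difference was -1.53 ± 0.36 (SE), or 2.89-fold lower in gonadal males. Tgtp1 has a near-identical neighbour, Tgtp2, which no probe names in the annotation used. Whether the probe separates the 2 was not tested.

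Ubd stood at -1.39, -1.62, -2.20, -2.11 and -1.22 in XX Sry livers and at -1.66, -1.46, -1.82, -1.91 and -1.10 in XY-Sry livers. It stood at -0.55, 0.30, 0.22, 0.48 and -0.70 in XX livers and at 3.15, -0.52, -0.79, -0.53 and -0.03 in XY- livers. All males lay below all females, but with a narrow gap, between -1.10 in the highest male and -0.79 in the lowest female. The mean difference was -1.75 ± 0.37 (SE), or 3.37-fold lower in gonadal males. Of the 7 genes, Ubd had the widest spread among females (SD 1.16, n = 10), with XY- animal 12 as its highest value.

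**Figure D1:**
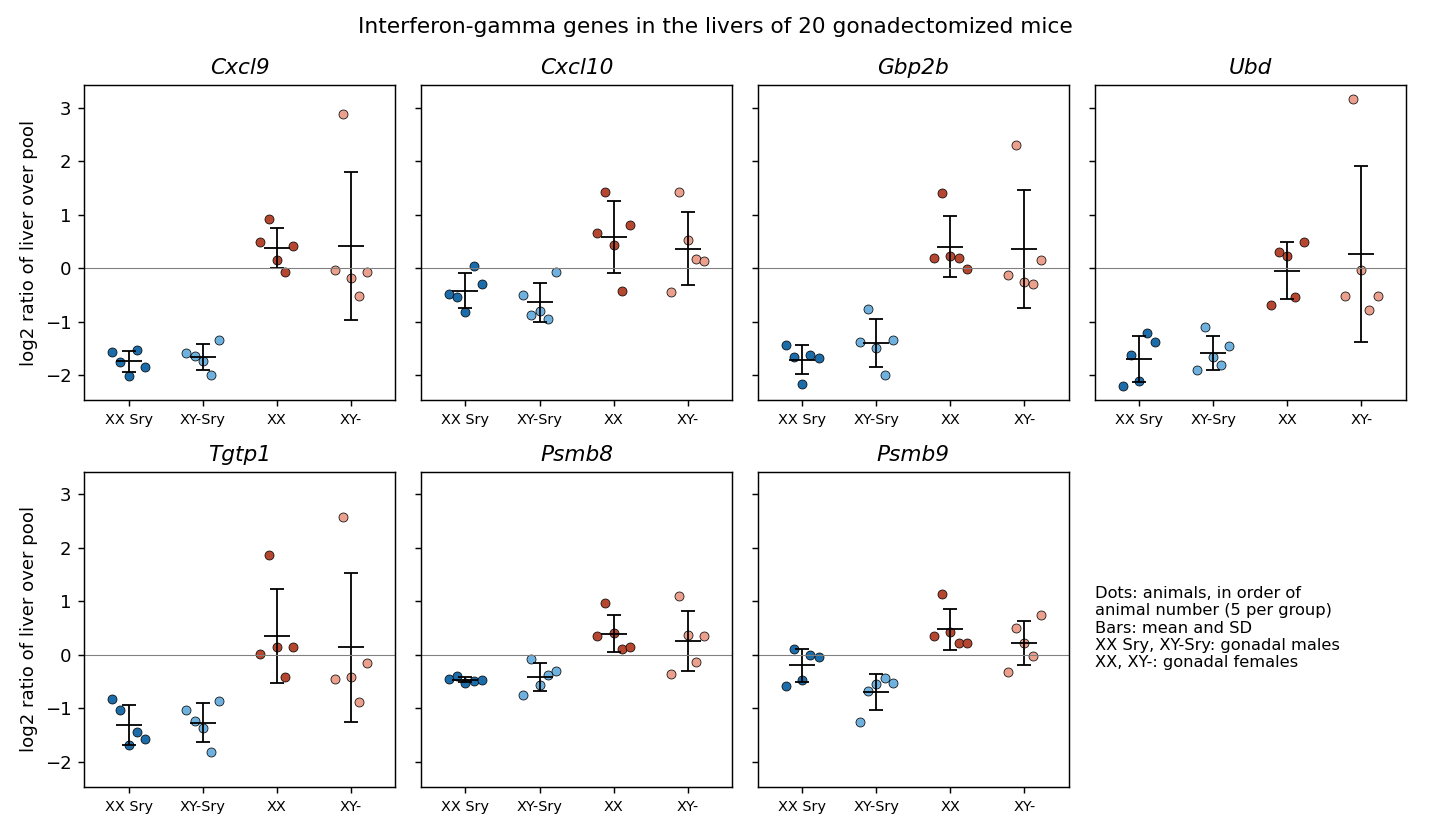
Log2 ratio of liver over pool (vertical axis) for each of the 7 genes in the 4 groups; each dot is 1 animal (n = 5 per group), and bars give the mean and SD. All 10 gonadal males (XX Sry, XY-Sry) lie below all 10 gonadal females (XX, XY-) in Cxcl9, Gbp2b and Ubd, and XY- animal 12 is the highest dot in Cxcl9 (2.88), Gbp2b (2.30), Ubd (3.15) and Tgtp1 (2.58).

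The immunoproteasome subunits differed less than the others. Psmb8 lay between -0.52 and -0.39 in XX Sry livers (median -0.47) and between -0.75 and -0.07 in XY-Sry livers (median -0.38). It lay between 0.12 and 0.97 in XX livers (median 0.34) and between -0.36 and 1.09 in XY- livers (median 0.35). The gonadal types overlapped, because XY- animals 3 and 24 lay among the males. The mean difference was -0.77 ± 0.15 (SE), or 1.70-fold lower in gonadal males.

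Psmb9 lay between -0.58 and 0.10 in XX Sry livers (median -0.03) and between -1.26 and -0.44 in XY-Sry livers (median -0.55). It lay between 0.22 and 1.14 in XX livers (median 0.35) and between -0.32 and 0.74 in XY- livers (median 0.22). Here 3 of the 5 XX Sry livers were near the pool, and the lowest value of all was in an XY-Sry liver. The mean difference was -0.79 ± 0.15 (SE), or 1.73-fold lower in gonadal males.

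Cxcl9, Gbp2b and Ubd were thus the 3 of 7 genes whose gonadal types did not overlap in this direction, as was so for 62 of all 21643 features (0.286%). Since the genes were picked for this contrast, nothing is read from that count. Across all features, 809 passed an adjusted p of 0.05 for gonadal type in limma, a linear model with shared spread (3.74%), with 316 higher (1.46%) and 493 lower (2.28%) in gonadal males. The 809 became 393 without XY-Sry animal 19 and 1679 with array weights, so shares set against these percentages carry that uncertainty.

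The gonadal difference was then taken on each sex chromosome background. For Cxcl9 it was -2.12 ± 0.43 between XX Sry and XX livers and -2.08 ± 0.43 between XY-Sry and XY- livers (SE). For Cxcl10 it was -0.997 between XX Sry and XX and -1.0 between XY-Sry and XY- livers, and for Gbp2b -2.12 between XX Sry and XX and -1.76 between XY-Sry and XY- livers. Ubd differed by -1.66 and -1.85, Tgtp1 by -1.66 and -1.41, Psmb8 by -0.86 and -0.68, and Psmb9 by -0.67 and -0.92, in the same order of backgrounds. The difference of these differences, tested as an interaction in limma, was called for 0 of 7 genes, and none had an unadjusted p under 0.05. Over all features, 0% were called and 2.6% had an unadjusted p under 0.05. The lowest unadjusted p was 0.428, for Psmb9, with an adjusted p of 1 by limma. These intervals are wide: for Cxcl9 the interaction lay between -1.32 and 1.23 at 95% confidence, so the test does not show that the backgrounds act alike.

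The sex chromosomes were tested next, as XX livers (XX Sry, XX) minus XY livers (XY-Sry, XY-), a contrast the choice of genes did not use. Limma called 0 of the 7 genes and 0.0277% of all features. At an unadjusted p under 0.05 there was 1 of the 7 genes, and 5.08% of all features. That gene was Psmb9, which was 0.37 ± 0.15 (SE) higher in XX livers (unadjusted p = 0.0236, adjusted p = 0.912 by limma). Psmb9 averaged -0.20 ± 0.31 in XX Sry and -0.69 ± 0.33 in XY-Sry livers (SD, n = 5 each). It averaged 0.47 ± 0.38 in XX and 0.22 ± 0.42 in XY- livers. For the other 6 genes the adjusted p by limma lay between 0.933 and 0.981. The estimates were -0.06 for Cxcl9 (95% interval -0.70 to 0.58), 0.22 for Cxcl10 (-0.25 to 0.69), -0.13 for Gbp2b (-0.72 to 0.45) and -0.21 for Ubd (-0.996 to 0.57). They were 0.09 for Tgtp1 (-0.66 to 0.83) and 0.04 for Psmb8 (-0.27 to 0.35). The sign of the estimate for Cxcl9, Ubd and Psmb8 turned under some alternative settings, and with single animals left out also that for Gbp2b and Tgtp1. Without the library labelled XY- animal 30, 0 of the 7 genes was called by limma for the sex chromosomes and 0 for the interaction. Psmb9 then differed by 0.44 ± 0.15 (SE, adjusted p = 0.745 by limma), Cxcl9 by -0.12, Cxcl10 by 0.19, Gbp2b by -0.16, Ubd by -0.31, Tgtp1 by 0.05 and Psmb8 by 0.05. The interaction estimates without it ran between -0.31 (Gbp2b) and 0.38 (Ubd), each with an adjusted p of 1 by limma.

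In 2 gonadal females most of the 7 genes stood above the rest of their group, apart from Psmb9 in XY- animal 12 and Ubd in XX animal 6, which were not the highest there. In XY- animal 12, Ubd was 12.8-fold above the median of the other 4 XY- livers, Tgtp1 8.05-fold, Cxcl9 8.00-fold and Gbp2b 5.62-fold. Cxcl10 was 2.40-fold, Psmb8 1.98-fold and Psmb9 1.31-fold above it in that animal. In XX animal 6 the order was different: Tgtp1 was 3.46-fold above the median of the other 4 XX livers and Gbp2b 2.33-fold, then Cxcl10 (1.84-fold), Psmb9 (1.81-fold), Psmb8 (1.65-fold), Cxcl9 (1.54-fold) and Ubd (1.38-fold). Both arrays are among the 4 of wide spread. Their other gene lists differed too. Neutrophil markers averaged 2.04 in XY- animal 12, while the other 4 XY- livers lay between -0.83 and -0.80, with the neutrophil genes Camp at 3.74, S100a9 at 3.55 and S100a8 at 3.395. Kupffer cell markers averaged 1.54 there, against -0.26 to -0.06. In XX animal 6, genes of the type I interferon response averaged 1.20, against 0.03 at most in the other XX livers, with Oas1g at 2.13, Ifit3 at 1.98 and Rtp4 at 1.94. These genes averaged at most 0.07 in XY- livers. The part of these markers in the values of the 7 genes was not tested.

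The gonadal difference was smaller without these animals but kept its direction. Without XX animal 6 and XY- animal 12, left out together after their values were seen, Cxcl9 differed by -1.73 ± 0.10 and Gbp2b by -1.57 ± 0.13 (SE). Ubd then differed by -1.35 ± 0.18, Tgtp1 by -1.04 ± 0.15, Cxcl10 by -0.76 ± 0.18, Psmb9 by -0.68 ± 0.14 and Psmb8 by -0.59 ± 0.10. Tgtp1, which differed by 2.89-fold with all animals, differed by 2.05-fold without these 2. Without the library labelled XY- animal 30, Cxcl9 differed by -2.16 and Ubd by -1.85.

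**Figure D2:**
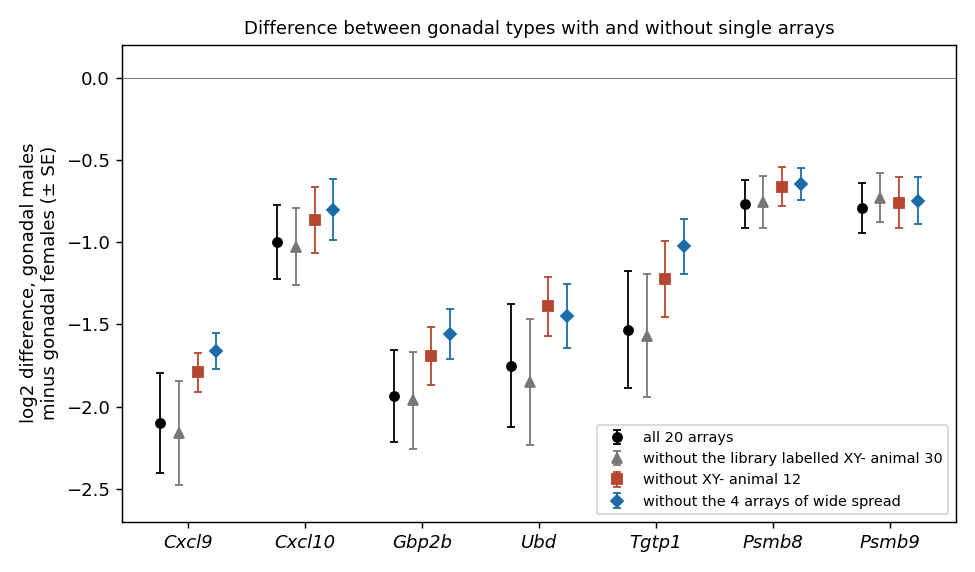
Log2 difference of gonadal males minus gonadal females (vertical axis, points with SE) for each gene, with all 20 arrays, without the library labelled XY- animal 30, without XY- animal 12 and without the 4 arrays of wide spread. Every point lies below 0, and Cxcl9 runs between -2.16 and -1.66.

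Among the genes of the pathway itself, few were called. Of 20 measured genes for the ligand, its receptor, its signalling and its inducers, 3 were lower in gonadal males (15%, against 2.28% of all features) and none was higher, with 9 at an unadjusted p under 0.05. Ifng, the ligand, averaged -0.35 ± 0.18 in gonadal males and 0.17 ± 0.39 in gonadal females (SD, n = 10 each), a difference of -0.52 (adjusted p = 0.0291 by limma). Socs1, an inhibitor of JAK kinases that the pathway induces, differed by -0.55 (adjusted p = 0.0361), and Il18bp, a secreted antagonist of the interferon-gamma inducer IL-18, by -0.63 (adjusted p = 0.0449). The call of Ifng was lost without XX Sry animal 18, XX Sry animal 31 or XY-Sry animal 19 (adjusted p of up to 0.059), that of Socs1 in 11 and that of Il18bp in 15 of 20 fits that left out 1 animal (up to 0.0753 and 0.0851). The receptor chains and kinases did not pass with all arrays, but Ifngr1 passed in 1 of 10 alternative settings. Ifngr1 stood at -0.18 ± 0.20 in males and 0.18 ± 0.34 in females (adjusted p = 0.114), Ifngr2 at -0.09 and -0.06, Jak1 at -0.05 and -0.08, and Jak2 at -0.10 and 0.09, in the same order. Irf1, the transcription factor, averaged -0.35 ± 0.41 in males and 0.17 ± 0.60 in females (adjusted p = 0.225).

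The next list holds chemokines near Cxcl9 and Cxcl10 in function. In this list of CXCR3, its other ligand and further chemokines, 5 of 7 measured genes were lower in gonadal males (71.4%) and the median difference was -0.67, against 0.01 over all features. Cxcr3, the receptor for CXCL9 and CXCL10 on T and NK cells, averaged -0.40 ± 0.12 in males and 0.41 ± 0.36 in females (adjusted p = 0.000897). Cxcr3 had the smallest p of the list, and males and females differed by 1.76-fold. Ccl5, a chemokine of T cells, differed by -1.02 (adjusted p = 0.0393), and the monocyte chemokines Ccl2 and Ccl7 by -0.71 and -0.62 (adjusted p = 0.0409 and 0.0187). Cxcl16, a ligand of CXCR6, differed by -0.36 (adjusted p = 0.0217). Cxcr3 and Ccl7 kept their calls in all 20 fits that left out 1 animal, whereas Cxcl16 lost its call without XY-Sry animal 19 (adjusted p = 0.0505), Ccl5 in 12 fits and Ccl2 in 11 fits. The third CXCR3 ligand, Cxcl11, stood at 0.03 ± 0.12 in males and at -0.003 ± 0.12 in females (adjusted p = 0.808).

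The GTPase families gave 1 call. Of 3 measured guanylate-binding protein genes beside Gbp2b, Gbp8 was lower (-1.05, adjusted p = 0.0141), while Gbp2 (-0.72, adjusted p = 0.0841) and Gbp3 (-0.64, adjusted p = 0.214) did not pass, and all 3 had an unadjusted p under 0.05. The call of Gbp2 depended on the settings, with an adjusted p by limma of 0.0186 after quantile normalization. Of 6 immunity-related GTPase genes beside Tgtp1, limma called 0, with 3 at an unadjusted p under 0.05 and a median of -0.27. Ifi47 was the lowest of the 6, at -0.50.

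The proteasome genes fell into 2 kinds. Psmb10, the third catalytic subunit of the immunoproteasome, averaged -0.31 ± 0.20 in gonadal males and 0.35 ± 0.36 in gonadal females (difference -0.66, adjusted p = 0.00738). Psme1, a subunit of the proteasome activator PA28, differed by -0.34 (adjusted p = 0.0236), and lost its call without XX Sry animal 31 (adjusted p = 0.0523). Both measured genes of that list beside Psmb8 and Psmb9 were thus lower. Of the 14 genes of the standard proteasome core, limma called 0, with 2 at an unadjusted p under 0.05, and differences ran between -0.04 and 0.23. The 3 standard subunits that the immunoproteasome replaces stood at 0.13 (Psmb5), 0.09 (Psmb6) and 0.08 (Psmb7), with an adjusted p of 0.322, 0.722 and 0.622. Psmb6 and Psmb7 turned negative without the 4 arrays of wide spread (-0.07 and -0.04), where the median of the 14 was 0.0003, against 0.12 with all arrays.

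Antigen presentation genes gave 5 calls of 20. In the MHC class I list, 3 of 12 were lower: B2m, the light chain of class I (-0.38, adjusted p = 0.0331), H2-Q7 (-0.28, adjusted p = 0.0272) and H2-T23 (-0.33, adjusted p = 0.0412). Without XX animal 6 and XY- animal 12 these 3 did not pass (-0.35, -0.25 and -0.25, adjusted p = 0.0636, 0.0588 and 0.0638), against -0.38, -0.28 and -0.33 with all animals. With 1 animal left out, B2m lost its call in 8, H2-Q7 in 4 and H2-T23 in 12 of 20 fits. Tap1, which carries peptides into the endoplasmic reticulum and is a neighbour of Psmb9 on chromosome 17, stood at -0.03 ± 0.18 in males and 0.07 ± 0.39 in females (adjusted p = 0.776). In the class II list, H2-Aa (-1.04, adjusted p = 0.00687) and H2-Eb1 (-1.40, adjusted p = 0.0092) were lower, 2 of 8 measured. Both kept their calls in all 20 fits that left out 1 animal and without the 4 arrays of wide spread. Of 17 other targets of the cytokine, 1 was lower, Fcgr1, the high-affinity Fc receptor for IgG (-1.09, adjusted p = 0.00873). In that list 7 genes had an unadjusted p under 0.05.

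Over these 8 lists together, 17 of 75 measured genes were lower and 0 higher in gonadal males (22.7% lower, against 2.28% of all features), with 41 at an unadjusted p under 0.05 (17.8% of all features). The lists were drawn up with earlier results of these data known, and the count is not independent evidence of its direction. The median difference was -0.25 with all arrays, -0.12 without XX animal 6 and XY- animal 12, and -0.13 with the 4 wide arrays left out. The count ran between 8 and 21 with single animals left out, and was 8 without XX Sry animal 31 or XY-Sry animal 19. Without XX animal 6 and XY- animal 12, 17 genes were lower, of which 14 were among the 17. For the sex chromosomes limma called 0 of the 75, with 1 at an unadjusted p under 0.05, and for the interaction 0, with 0. Both counts include the library labelled XY- animal 30 and are not given without it. Genes mainly induced by type I interferon gave 2 lower of 21 (9.52%), Irf7 (-0.75, adjusted p = 0.0272) and Oas3 (-0.19, adjusted p = 0.0325). In that list 6 genes had an unadjusted p under 0.05. With the 4 wide arrays left out neither passed (Irf7 -0.54, adjusted p = 0.0902, and Oas3 -0.14, adjusted p = 0.134), whereas both passed without XX animal 6 and XY- animal 12 (adjusted p = 0.0361 and 0.047). With 1 animal left out, Irf7 lost its call in 2 and Oas3 in 9 of 20 fits.

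**Figure D3:**
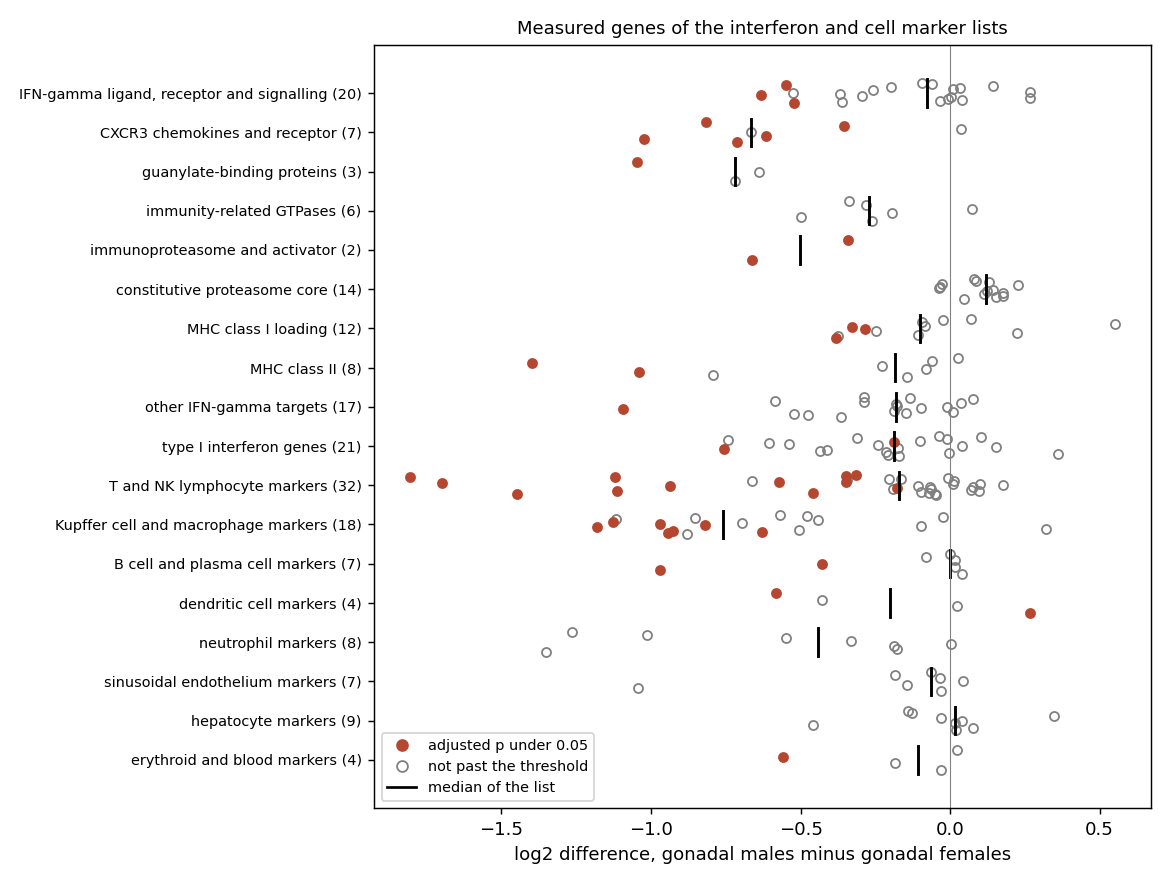
Log2 difference of gonadal males minus gonadal females (horizontal axis) for each measured gene of each list (rows, with the number measured); filled dots passed an adjusted p of 0.05 in limma and black bars are medians. All filled dots lie below 0 except Ccr7 (0.27), and the 14 genes of the standard proteasome core lie between -0.04 and 0.23.

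Some markers of immune cells were lower in gonadal males too. The marker lists were also drawn up with earlier results of these data known, so their counts are not independent evidence of direction. Of 32 measured T and NK lymphocyte markers, 12 were lower in gonadal males (37.5%, against 2.28% of all features) and 0 higher. With 1 animal left out, Cd8a lost its call in 15, Zap70 in 6 and Xcl1 in 5 of 20 fits. In all 20 fits, 9 of the 12 kept their calls. The largest differences were those of the T cell receptor gene Trav9d-3 (-1.81), the IL-2 receptor chain Il2rb (-1.70), Cd2 (-1.45), Tbx21, the transcription factor of cells that make interferon-gamma (-1.12), Cd3g (-1.11) and Cxcr6 (-0.94). The other 20 did not pass, and 7 of the 32 had a positive difference, among them Cd4 (0.10), Cd8b1 (0.08), Cd5 (0.07) and the granzyme genes Gzma (0.18) and Gzmb (0.10). The list mean per liver lay between -0.26 and -0.12 in the 10 males and between 0.002 and 0.60 in the 10 females. The gonadal types thus did not overlap in this mean of 32 genes. The share of single features without overlap in this direction (0.286%) is not a measure for a list mean, so nothing is read from it. Of 18 Kupffer cell and macrophage markers, 7 were lower (38.9%, against 2.28% of all features), among them Cd5l (-1.18), Folr2 (-1.13) and Csf1r (-0.97). C1qa lost its call in 13 of 20 fits that left out 1 animal, and the 6 others kept theirs. Adgre1 (-0.88), Marco (-1.12), Vsig4 (-0.57) and Timd4 (-0.48) did not pass (adjusted p between 0.0515 and 0.226 by limma). Of the 18, 17 had a negative difference, with Slc40a1 (-0.02) and Cd68 (-0.10) near 0, and Cd163 a positive one (0.32). The mean of the Kupffer list lay between -0.84 and 0.41 in males and between -0.26 and 1.54 in females. XY-Sry animal 14 was the highest male, and the other 9 lay at most at -0.44. In B cell markers 2 of 7 were lower (Cd22 at -0.97, Cd79b at -0.43), and in dendritic cell markers Itgax was lower (-0.58) and Ccr7 higher (0.27), 2 of 4 measured, and both lost their calls in 12 of 20 fits that left out 1 animal. Limma called 0 of 8 neutrophil, 0 of 7 endothelial and 0 of 9 hepatocyte markers, with 5, 1 and 1 at an unadjusted p under 0.05. Of 4 erythroid and blood markers, Hba-a1 was lower (-0.56). The part of these cell types in the values of the 7 genes was not tested.

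In XY-Sry animal 14 the Kupffer cell markers averaged 0.41, the highest of the 10 males, and its MHC class II (-0.11) and dendritic cell (0.01) means were also the highest of the males. Its Gbp2b (-0.77), Ubd (-1.10) and Psmb8 (-0.07) were the highest of the males. Its Cxcl9 (-1.64) and Tgtp1 (-1.25) lay within the range of the other males. Its Cxcl10 (-0.88) lay above only that of XY-Sry animal 20 (-0.95), and its Psmb9 (-0.68) above only that of XY-Sry animal 5 (-1.26).

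**Figure D4:**
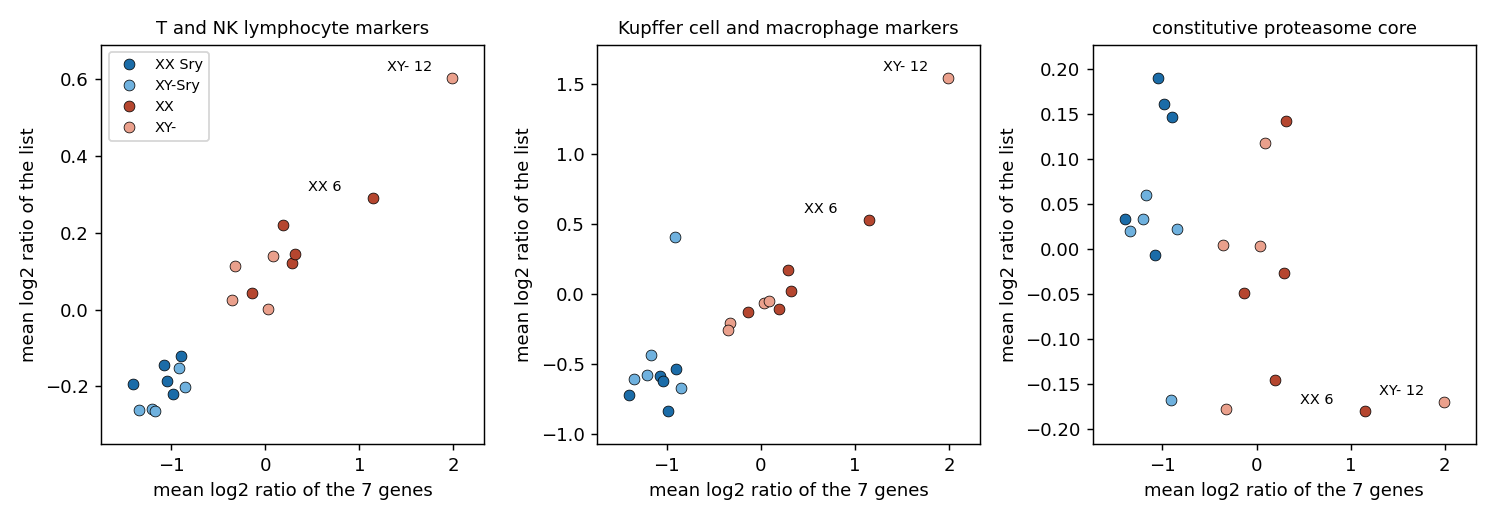
Mean log2 ratio of the 7 genes (horizontal axis) against the mean log2 ratio of 3 lists (vertical axis), 1 dot per animal, coloured by group. The 10 gonadal males form a separate cloud from the 10 gonadal females in T and NK markers (-0.26 to -0.12 against 0.002 to 0.60), and XY- animal 12 and XX animal 6 lie at the upper right in both marker lists.

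Because the gonadal types form separate clouds, correlations across animals were taken within each (10 animals, 21 pairs of genes), as a description. In gonadal males the Pearson r between genes ran between -0.365 and 0.81, with a median of 0.333. In gonadal females it ran between 0.277 and 0.974, with a median of 0.82. Without the 2 animals farthest from the median of the first gene of a pair, the median r was 0.0509 in males and 0.558 in females. Cxcl9 and Tgtp1 were among the closest pairs in both, with r = 0.81 and Spearman's rho = 0.709 in males and r = 0.928 and rho = 0.867 in females. Without 2 animals their r was 0.716 in males and 0.895 in females. Psmb8 and Psmb9 had r = 0.255 in males and 0.82 in females. All values share the pool, and high values on 1 array share its spread.

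**Figure D5:**
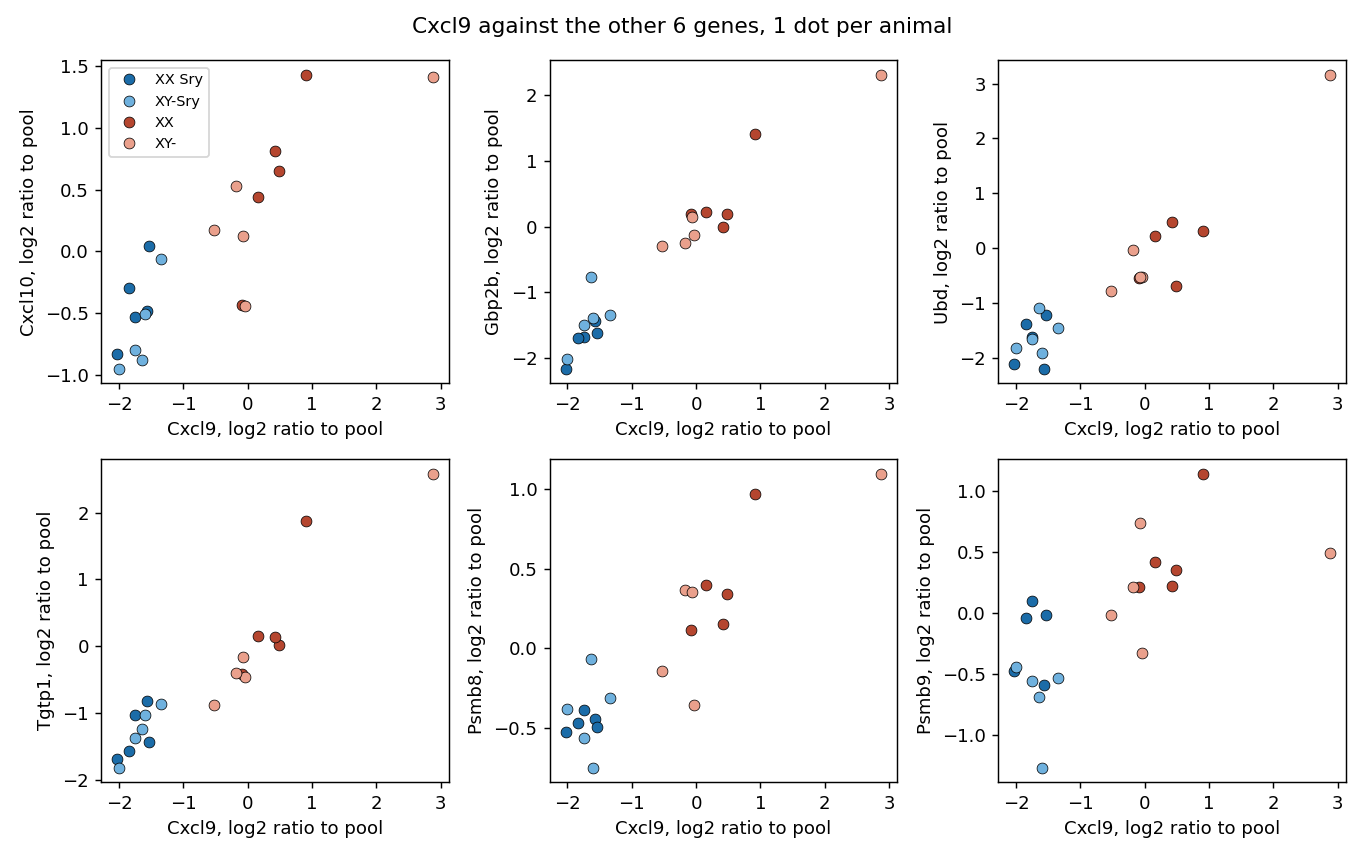
Log2 ratio of Cxcl9 (horizontal axis) against that of each of the other 6 genes (vertical axes), 1 dot per animal, coloured by group. Gonadal males lie to the left of all gonadal females in every panel. On the vertical axis the gonadal types overlap in Cxcl10, Tgtp1, Psmb8 and Psmb9. Tgtp1 follows Cxcl9 within both gonadal types (r = 0.81 in males and 0.928 in females), and Psmb9 does not in males (r = -0.2).

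Within females the mean of the 7 genes followed some lists also among the other 8 animals. With the CXCR3 and chemokine list its r was 0.981, and 0.943 without XY- animal 12 and XX animal 6. With the MHC class II list it was 0.935, and 0.88 without the 2, and with Kupffer cell markers 0.97 and 0.865. With T and NK markers it was 0.933 and 0.549. With neutrophil markers it was 0.902, and 0.313 without the 2. With the ligand, receptor and signalling list it was 0.92, and -0.174 without the 2, so that relation rests on those 2 animals. With the standard proteasome core it was -0.393, and 0.415 without the 2. In males r was 0.511 for class II, 0.293 for Kupffer cell markers and 0.554 for T and NK markers. Whether it differs between the gonadal types was not tested.

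The genes most like the 7 were sought by their deviations from the 4 group means over all 20 arrays, among 11726 named genes. The 10 with the highest r to the mean deviation of the 7 were Ccl5 (0.93), Pycard (0.929), Casp1 (0.929), Ppbp (0.926), Atp1b3 (0.925), Panx1 (0.923), Cd86 (0.921), Klrd1 (0.921), Anxa3 (0.918) and Ly86 (0.916). Pycard and Casp1 encode parts of the inflammasome, Cd86 a costimulatory ligand of antigen-presenting cells, Klrd1 an NK receptor chain and Ppbp a platelet chemokine. These values rest mostly on 2 animals: 219 genes had an r above 0.8 with 20 arrays and 1 gene without XX animal 6 and XY- animal 12. For the 10 genes r then lay between 0.465 (Atp1b3) and 0.737 (Anxa3).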

How the data were processed

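Liver RNA of 20 mice was hybridised to 2-colour arrays against a common liver pool. Per the labels' protocols, RNA was purified on Qiagen RNeasy columns with DNAse and labelled with the aminoallyl MessageAmp II kit. The labels give the pool as 17 chow-fed mice, whereas the series text describes equal portions of each sample. The deposited values are log10 ratios as the authors made them. Base 10 and the direction, liver over pool, were read from the values and from Y-linked genes, since the labels do not state them. Scanner, background correction and dye normalization are not given in the sources used here, and the arrays' number limits the precision.

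Log10 ratios were turned to log2. The 23574 probes were averaged by gene into 21643 features, named through the platform's annotation and current mouse symbols (12662 probes by Entrez ID, 4 by accession, 999 by platform symbol). A further 9861 probes were not listed in it. A linear model with 4 group means was fitted in limma 3.58.1 (R 4.3.3, 16 residual degrees of freedom), with Benjamini-Hochberg adjustment over all features and a threshold of 0.05. The contrasts were gonadal males minus gonadal females, XX minus XY, and their interaction, and the fit was tested on simulated data. Animals of a group are separate mice. The genes named include the 7 members, called genes of the lists, receptor, kinase and standard proteasome subunits, and the 10 genes most like the members. Some list genes that did not pass are named too, several of them for high values in XX animal 6 or XY- animal 12. Y-linked genes are named to check the labels. Members, lists and naming rule were chosen with earlier results of these data known. Alternatives covered probe averaging, centring, scaling, quantile normalization, array weights, moderation, values at the limit and arrays left out.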

Additional observations from a re-analysis of the deposited data

Results flagged for a closer look

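In 7 of 28 groups of 5 animals, 1 liver stood apart from the other 4 by Dixon's test (critical value 0.71). Chance gives about 1 in 20 such groups, and the genes share arrays, so these are not independent. XY- animal 12 stood apart in Cxcl9 (2.877), Gbp2b (2.298), Ubd (3.155) and Tgtp1 (2.58, all log2 ratios of liver over pool). XX animal 6 stood apart in Gbp2b (1.412), Tgtp1 (1.868) and Psmb9 (1.144).

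The mean log2 ratios of the gene lists gave 15 of 76 groups. XY- animal 12 was the high one in the mean of the 7 genes (1.987), the ligand, receptor and signalling list (0.5138), the CXCR3 and chemokine list (1.152), the immunity-related GTPases (0.692), MHC class II (0.9068) and other interferon-gamma targets (0.7413). It was also the high one in markers of T and NK lymphocytes (0.6034), Kupffer cells (1.541), dendritic cells (0.6509) and neutrophils (2.037). XX animal 6 was the high one in guanylate-binding proteins (1.334), immunity-related GTPases (0.9387) and type I interferon genes (1.201). XY-Sry animal 14 was the low one in the standard proteasome core (-0.1679) and the high one in Kupffer cell markers (0.4069).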

How the results depend on the processing

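Under the 10 alternatives and in all 20 fits that left out 1 animal, the gonadal difference of each of the 7 genes stayed negative. Over the 10 alternatives it ran between -2.28 and -1.66 for Cxcl9, -1.06 and -0.76 for Cxcl10, -2.095 and -1.56 for Gbp2b, -1.97 and -1.35 for Ubd, and -1.66 and -1.03 for Tgtp1. Limma called 0 of the 7 genes for the sex chromosomes and 0 for the interaction under each of the 10. The XX minus XY estimate changed sign for Psmb8 with scaled arrays (-0.001499), for Cxcl9 after quantile normalization (0.0614), and with array weights for Cxcl9 (0.1165) and Ubd (0.08542). It also changed without the 4 wide arrays for Cxcl9 (0.1712), Ubd (0.1901) and Psmb8 (-0.0103), and without XX animal 6 and XY- animal 12 for Cxcl9 (0.1834) and Ubd (0.107). With single animals left out it ran between -0.175 and 0.2499 for Cxcl9, -0.2603 and 0.1093 for Gbp2b, -0.3417 and 0.1509 for Ubd, -0.1046 and 0.3902 for Tgtp1, and -0.03626 and 0.1453 for Psmb8.

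For gonadal type, without the 4 wide arrays the sign turned for Ifngr2 (0.05271), Cxcl11 (-0.01303), Psmb6 (-0.07493) and Psmb7 (-0.03762), and without XX animal 6 and XY- animal 12 for Ifngr2 (0.006664). With single animals left out Ifngr2 ran between -0.07668 and 0.02381 and Jak1 between -0.006965 and 0.08089. The number of lower pathway genes, 17 with all arrays, was 27 after quantile normalization and ran between 8 and 21 with single animals left out. It was 9 without XX Sry animal 18, 8 without XX Sry animal 31, 8 without XY-Sry animal 19, and 11 without XX Sry animal 9 or XY-Sry animal 5. The number of higher ones was 1 with array weights and ran between 0 and 1 with single animals left out. Lower Kupffer cell markers, 7 with all arrays, numbered 11 after quantile normalization and 11 with array weights, and all features called, 809 with all arrays, numbered 1679 with array weights. With single animals left out the called features ran between 393 (without XY-Sry animal 19) and 1129 (without the library labelled XY- animal 30), and numbered 404 without XX Sry animal 31, 481 without XX Sry animal 18, 493 without XX animal 2 and 532 without XY-Sry animal 27. The cause was not tested. Fits on only the groups of a contrast, run for the difference within each sex chromosome background, left the differences as they were and changed the SE, for Cxcl9 to 0.17 between XX Sry and XX and to 0.55 between XY-Sry and XY- livers, against 0.43 in the fit of all groups. They were not run for the sex chromosomes within a gonadal type. No paired analysis was possible because every animal has a number of its own. Ratios carry no signal level, so the part of weak signals in the spread was not analysed here.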
